A study of Mus musculus with 27 samples.

Results

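The genes described here encode subunits of the BAF chromatin remodeling complex that have alternative forms. Most of these subunits have a form used in dividing progenitors and a form used in neurons. The genes are 10 of the 54532 genes in the deposited table, chosen by gene name, and they form 4 subunit pairs. *Actl6a* and *Actl6b* encode BAF53a and BAF53b. *Phf10* (BAF45a) and *Dpf2* (BAF45d) were set against *Dpf1* (BAF45b) and *Dpf3* (BAF45c), *Ss18* against *Ss18l1* (CREST), and *Smarca4* (BRG1) against *Smarca2* (BRM). The last pair are alternative ATPases and not part of the exchange described below. *Smarca4* is counted with the progenitor forms and *Smarca2* with the neuronal forms only as a label for the comparison. *Dpf2* is also counted with the progenitor forms only as a label, since the exchange described below does not include it.

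BAF complexes use the energy of ATP to slide or evict nucleosomes, with either SMARCA4 or SMARCA2 as the ATPase. In the developing nervous system, neural progenitors leave the cell cycle with an exchange of BAF53a for BAF53b, BAF45a for BAF45b and BAF45c, and SS18 for CREST, and the complex that results serves dendrite growth and activity-dependent transcription. In that setting the repressor REST, miR-9-3p, and miR-124 are known to act on the choice of BAF53 form.

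Mouse embryonic fibroblasts (MEFs) were reprogrammed to induced neurons (iNs) with lentiviruses for transcription factors, among them *Brn2* (*Pou3f2*) and *Myt1l*, which are driven by doxycycline through the M2rtTA transactivator. RNA of WT, Per1-/-, and Per2-/- cells was sequenced on days 0, 2, and 4, in triplicate, so that 27 libraries fell into 9 groups. By the protocol the viruses were added before day 0, but the authors' account of the RNA does not state this for the day 0 libraries. Day 0 was the day when doxycycline was added. The same step replaced a medium with serum by a serum-free one. No group of days 2 and 4 lacked doxycycline or kept the serum. Changes from day 0 therefore cover induction and the new medium together, and the part of each was not tested. If the day 0 cells bore no virus, these changes cover transduction as well. Per1-/- and Per2-/- are germline mutant alleles, and MEFs were prepared from several embryos together, after removal of head and heart. The labels call the cells induced neurons at every time, but the day 0 libraries are fibroblast cultures before induction, which by the protocol bore the viruses.

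Values are FPKM, fragments divided by exon length and library size, with a size factor of the authors in the latter, so that levels can be compared between genes. Each library held 15815013 to 24264097 fragments on genes. *Pou3f2* had 0 to 0.0278 FPKM on day 0 and 121 to 429 on day 4. *Myt1l* reached 0.694 to 1.68 FPKM and its relative *Myt1* 2.86 to 6.62 on day 4. *Per2* transcript was higher, not lower, in the libraries labelled Per2-/- (log2 fold change against WT 1.03 on day 0, adjusted p = 0.00114 from limma). The RNA level thus does not show the loss named in the label, but it does not measure protein. By western blot, the authors reported loss of PER1 in Per1-/- MEFs and of PER2 in Per2-/- MEFs. The Per2-/- libraries are named by their label here. *Per1* had 3.23 to 4.96 FPKM in the Per1-/- libraries of day 0 against 5.44 to 6.33 in WT, 3.62 to 4.51 against 4.76 to 4.83 on day 2, and 4.23 to 4.59 against 4.92 to 5.62 on day 4. It stood below WT without overlap on each day, but the log2 differences of -0.50, -0.19, and -0.21 were not called (adjusted p = 0.771, 0.999, and 0.933 from limma), so transcript of the targeted gene was still counted in these libraries. FPKM cover the whole gene, and which part of a transcript remained was not tested. These are bulk cultures, in which fewer cells of a type and less RNA per cell cannot be told apart. The sum of 15 neuronal markers had a median of 73.0 FPKM on day 0 and 170 on day 4, with 11 of 13 tested higher and 1 lower, while that of 11 fibroblast markers stayed far above it at 4269 and 5565. The sum of 12 macrophage markers ran from 128 to 1065 FPKM on day 0 and from 438 to 2102 on day 4, and that of 12 muscle markers from 84.3 to 413 and from 43.0 to 96.7. On day 4, 7 of 11 fibroblast markers were called higher and 3 lower, 12 of 12 macrophage markers higher, and, although the sum of the list was lower, 6 of 10 tested muscle markers higher and 3 lower, with a median log2 difference of 1.69. None of these lists had a marker at 0 in all libraries of a day, and the part of these cells in the results below was not tested.

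Sequences of the genes with the largest change and of a microRNA of the BAF53 pair are shown first. The promoter of *Actl6b*, which had no fragment on day 0, and that of *Smarca2*, which had the largest change among the subunits tested, are 300-base windows from RefSeq (GRCm38.p6, 250 bases before to 50 after the start). *Actl6b* is at chr5:137553296-137553595 and *Smarca2* at chr19:26604910-26605209, both on the plus strand. The promoter of *Phf10*, the progenitor form that rose, is at chr17:14961211-14961510 on the minus strand. Capitals mark a match on either strand to TCAGCACC, the left end of the REST motif RE1, or to the E-box CAGCTG.
Actl6b: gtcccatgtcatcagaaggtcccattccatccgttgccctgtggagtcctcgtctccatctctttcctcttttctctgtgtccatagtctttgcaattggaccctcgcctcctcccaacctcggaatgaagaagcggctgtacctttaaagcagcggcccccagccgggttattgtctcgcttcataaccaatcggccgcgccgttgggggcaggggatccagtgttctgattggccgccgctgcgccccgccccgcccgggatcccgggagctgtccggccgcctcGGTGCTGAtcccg
Smarca2: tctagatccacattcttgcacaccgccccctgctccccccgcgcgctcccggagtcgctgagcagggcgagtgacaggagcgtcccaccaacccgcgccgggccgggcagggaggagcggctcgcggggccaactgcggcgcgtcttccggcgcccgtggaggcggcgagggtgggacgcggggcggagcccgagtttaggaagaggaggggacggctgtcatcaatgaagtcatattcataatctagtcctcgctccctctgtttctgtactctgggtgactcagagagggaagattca
Phf10: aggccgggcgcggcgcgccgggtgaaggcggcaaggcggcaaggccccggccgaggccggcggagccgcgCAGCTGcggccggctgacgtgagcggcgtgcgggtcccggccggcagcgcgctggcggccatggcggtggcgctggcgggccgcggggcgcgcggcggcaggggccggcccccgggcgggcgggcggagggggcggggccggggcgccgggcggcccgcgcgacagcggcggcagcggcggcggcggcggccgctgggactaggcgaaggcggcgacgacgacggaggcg

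Of the 9 members whose promoters were listed, all except *Ss18*, TCAGCACC was found for *Actl6b* and CAGCTG for *Phf10*. The octamer ATGCAAAT of POU factors was found for none. Across all 32851 promoters in the table, 1.65% held TCAGCACC, 16.3% CAGCTG, and 1.74% the octamer. The motifs were chosen after the sequences were in hand, and a match in letters is not a binding site.

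Mature miR-9-3p (RefSeq, GRCm38.p6) is given with its seed, bases 2 to 8, in capitals, and the member sites whose capitals pair with the seed are given beside it. The microRNA has 3 genomic copies with this mature sequence, of which *Mir9-1* is at chr3:88215652-88215673 on the plus strand. The site of *Actl6a* is at chr3:32726626-32726647 and that of *Smarca2* at chr19:26777488-26777509, both in the 3′ untranslated region on the plus strand (GRCm38). Of 21020 genes with such a region, 11.3% held a match to this seed, and the other members held none, while the seed of miR-9-5p matched no member. Matches to miR-124 were not searched, since its mature sequence was not available here.
miR-9-3p: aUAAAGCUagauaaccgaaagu
Actl6a site: acctcaacgtctgtAGCTTTAg
Smarca2 site: tgtcatctagaactAGCTTTAg

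The ATPase pair moved most among the 8 members that passed the filter on low values. *Smarca2* (ENSMUSG00000024921, chromosome 19 from 26605050 to 26778322, plus strand) had 1.90 to 3.54 FPKM on day 0 (median 2.40), 7.95 to 10.7 on day 2 (median 9.46), and 11.1 to 12.9 on day 4 (median 12.1). No library overlapped with those of another day, in either step. It rose by a log2 fold change of 1.92 to day 2 (standard error 0.0785, Benjamini-Hochberg adjusted p = 9.13e-15 in limma) and of 2.26 to day 4 (standard error 0.0785, adjusted p = 6.21e-16), averaged over the 3 genotypes. From day 2 to day 4 the difference was 0.34, which passed the adjusted p (0.0024 from limma) but was under the minimum size of 0.58 set for a call.

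*Smarca4* (ENSMUSG00000032187, chromosome 9 from 21616169 to 21704230, plus strand) remained the more abundant ATPase in every library. It had 45.7 to 61.8 FPKM on day 0 (median 51.2), 35.8 to 45.7 on day 2 (median 41.8), and 30.9 to 37.5 on day 4 (median 35.1). Every library of days 2 and 4 lay below every library of day 0, with the highest of day 2 just under the lowest of day 0. The log2 differences from day 0 were -0.29 on day 2 and -0.54 on day 4 (standard error 0.0544, adjusted p = 1.05e-08 from limma), under the minimum size. The share of *Smarca2* in the FPKM of the pair was 4.69% ± 1.28 (SD, n = 9) on day 0, 18.6% ± 2.38 on day 2, and 25.7% ± 1.26 on day 4. The sum of both genes was 53.2 ± 4.73 FPKM on day 0 and 46.7 ± 1.88 on day 4.

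**Figure D1:**
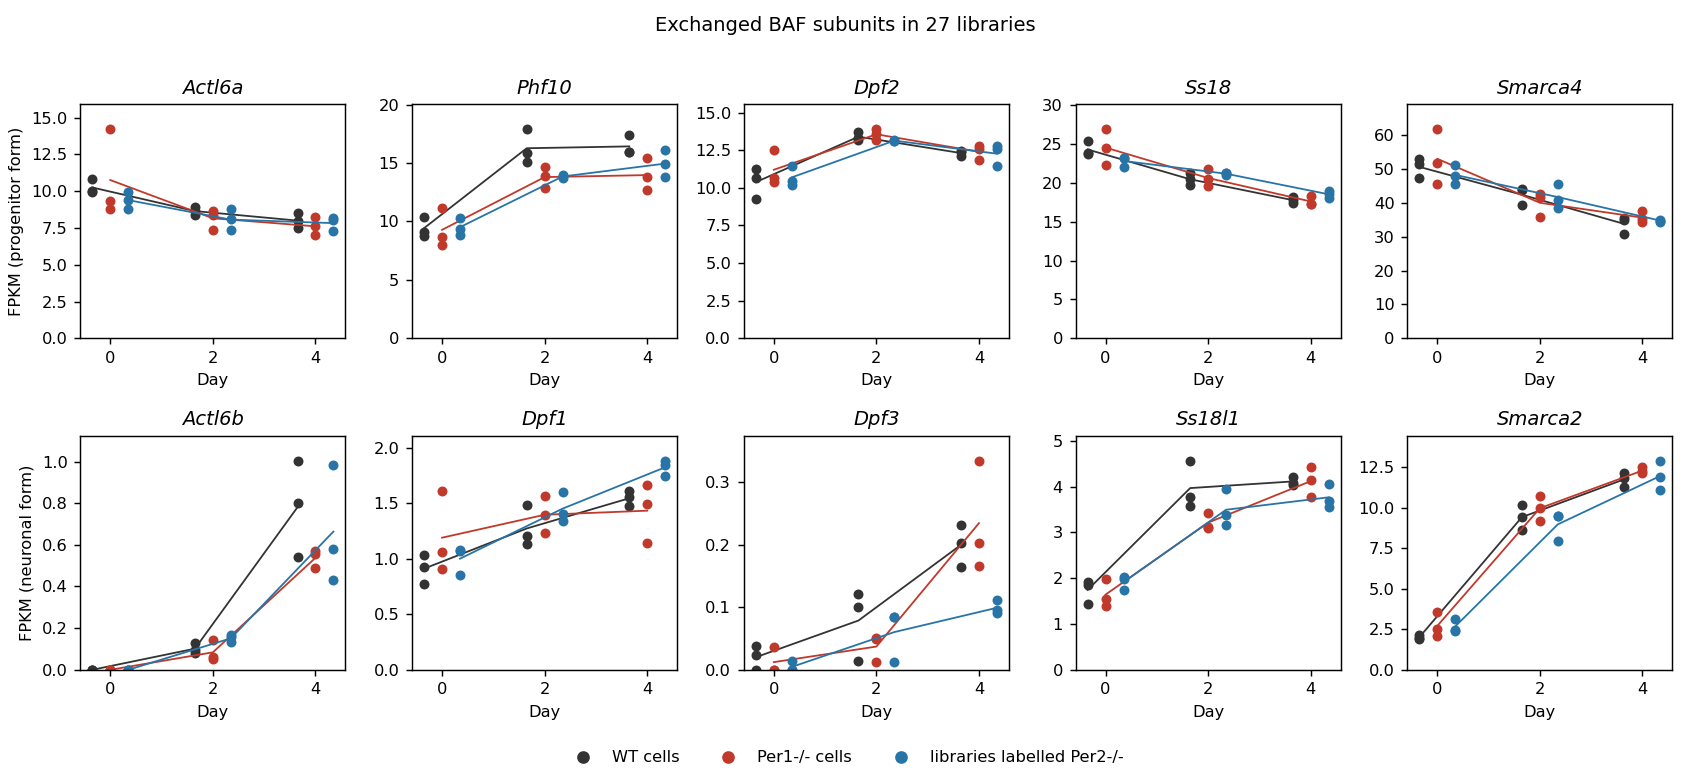
FPKM of the 10 members (vertical axes, one scale per gene starting at 0) against day 0, 2, or 4, with progenitor forms in the upper row and neuronal forms in the lower row. Each point is a library, colored by genotype and shifted sideways by genotype, and lines join the means of 3 libraries; *Smarca2* goes from a median of 2.40 to 12.1 FPKM while *Smarca4* stays above 30.

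The pair of SS18 and CREST moved in the same direction with a smaller size. *Ss18l1* (ENSMUSG00000039086, chromosome 2 from 180042509 to 180070201, plus strand), whose product CREST is a calcium-responsive coactivator, had 1.40 to 2.02 FPKM on day 0 (median 1.86), 3.10 to 4.56 on day 2 (median 3.42), and 3.56 to 4.43 on day 4 (median 4.06). Libraries of days 2 and 4 were all above those of day 0, and those of days 2 and 4 overlapped. It rose by a log2 fold change of 0.97 to day 2 (standard error 0.0740, adjusted p = 1.36e-10 from limma) and 1.14 to day 4 (adjusted p = 8.64e-12).

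*Ss18* (ENSMUSG00000037013, chromosome 18 from 14624198 to 14682914, minus strand), the progenitor form, had 22.1 to 26.9 FPKM on day 0 (median 23.7), 19.6 to 21.8 on day 2 (median 21.0), and 17.3 to 19.0 on day 4 (median 18.1). The libraries of the 3 days did not overlap and stood lower on each later day. The log2 difference was -0.20 on day 2 and -0.41 on day 4 (standard error 0.0347, adjusted p = 7.42e-10 from limma), also under the minimum size. *Ss18l1* took 6.90% ± 0.973 (SD, n = 9) of the FPKM of the pair on day 0, 14.6% ± 1.72 on day 2, and 18.2% ± 1.48 on day 4.

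*Actl6b* (ENSMUSG00000029712, chromosome 5 from 137553517 to 137569582, plus strand), the neuron-restricted BAF53 form, had no fragment in any of the 9 day 0 libraries. On day 2 it had 0.0503 to 0.166 FPKM (median 0.127), from 5 to 14 fragments per library, and on day 4 0.430 to 1.00 FPKM (median 0.569), from 34 to 96 fragments. The libraries of the 3 days did not overlap. Its mean of 0.661 FPKM on day 4 was at least 13.9-fold higher than on day 0, with 3 fragments per library as the floor at 0. Its mean over the 27 libraries, 0.258 FPKM, was under the filter of 0.5, so it was not among the 14932 genes tested. In a fit of all 36800 genes above 0 it was called in each step, with adjusted p = 9.84e-13 from limma for day 4 against day 0.

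*Actl6a* (ENSMUSG00000027671, chromosome 3 from 32706298 to 32726973, plus strand), which is also part of other remodeling and acetyltransferase complexes, had 8.76 to 14.2 FPKM on day 0 (median 9.92), 7.33 to 8.93 on day 2 (median 8.41), and 6.99 to 8.54 on day 4 (median 7.98). Its highest value was Per1-/- replicate 2 of day 0. The log2 difference from day 0 was -0.28 on day 2 and -0.36 on day 4 (standard error 0.0722, adjusted p = 0.000122 from limma), under the minimum size. Every day 4 library lay below every day 0 library, but days 0 and 2 overlapped. The share of *Actl6b* in the pair was 0% on day 0, 1.34% ± 0.506 (SD, n = 9) on day 2, and 7.82% ± 2.57 on day 4. *Mrpl47* and *Gm37353* on the opposite strand overlap *Actl6a*, and in a library without strand their reads cannot be told apart from its own.

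The BAF45 group did not follow the other pairs. *Phf10* (ENSMUSG00000023883, chromosome 17 from 14945009 to 14961273, minus strand), the form of progenitors and a subunit of PBAF, had 7.99 to 11.1 FPKM on day 0 (median 9.13), 12.8 to 17.9 on day 2 (median 13.9), and 12.7 to 17.4 on day 4 (median 15.4). It was higher in every library of days 2 and 4 than in any of day 0. It rose by a log2 fold change of 0.63 to day 2 (standard error 0.0610, adjusted p = 5.74e-09 from limma) and 0.68 to day 4 (adjusted p = 1.67e-09). *1600012H06Rik*, at a mean of 14.8 FPKM, overlaps *Phf10* on the opposite strand, and reads of the overlap cannot be told apart.

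*Dpf2* (ENSMUSG00000024826, chromosome 19 from 5896516 to 5913010, minus strand), which most tissues express, had 9.23 to 12.5 FPKM on day 0 (median 10.6), 13.1 to 13.9 on day 2 (median 13.2), and 11.5 to 12.8 on day 4 (median 12.4). Day 2 libraries were all above those of day 0 and all above those of day 4. The log2 difference from day 0 was 0.31 on day 2 and 0.20 on day 4 (adjusted p = 0.000248 from limma), under the minimum size.

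*Dpf1* (ENSMUSG00000030584, chromosome 7 from 29303951 to 29318243, plus strand), the BAF45b of neurons, had 0.770 to 1.61 FPKM on day 0 (median 1.04), 1.13 to 1.60 on day 2 (median 1.40), and 1.14 to 1.88 on day 4 (median 1.61). The days overlapped, since Per1-/- replicate 2 of day 0 reached 1.61 FPKM. The log2 fold change to day 4 was 0.60 (standard error 0.103, adjusted p = 2.02e-05 from limma) and it was called, but only just. It was not called without the libraries labelled Per2-/- (0.49) or with a pseudocount of 1 (0.36). It was also not called without WT day 0 replicate 3 (0.56), Per1-/- day 0 replicate 1 (0.54), Per1-/- day 0 replicate 3 (0.578), the library labelled Per2-/- day 0 replicate 1 (0.56), or Per1-/- day 4 replicate 2 (0.56).

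*Dpf3* (ENSMUSG00000021221, chromosome 12 from 83213745 to 83487716, minus strand), the BAF45c that reads acetylated histones, was near the limit of detection. It had 0 to 0.0373 FPKM on day 0 (median 0), 0.0119 to 0.122 on day 2 (median 0.0508), and 0.0903 to 0.334 on day 4 (median 0.166), from 0 to 3, 1 to 11, and 8 to 29 fragments per library. Day 4 libraries were all above those of day 0, while day 2 overlapped with both. At a mean of 0.0829 FPKM it was not tested, and in the fit of all genes above 0 it was called between days 0 and 4 (adjusted p = 2.42e-07 from limma). *Dpf1* and *Dpf3* together took 4.97% ± 1.26 (SD, n = 9) of the FPKM of the BAF45 group on day 0, 4.88% ± 0.689 on day 2, and 6.09% ± 0.595 on day 4. The share on day 4 overlapped with that on day 0, and the sum of the 4 genes was 21.2 ± 1.72 FPKM on day 0 and 29.2 ± 1.40 on day 4.

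**Figure D2:**
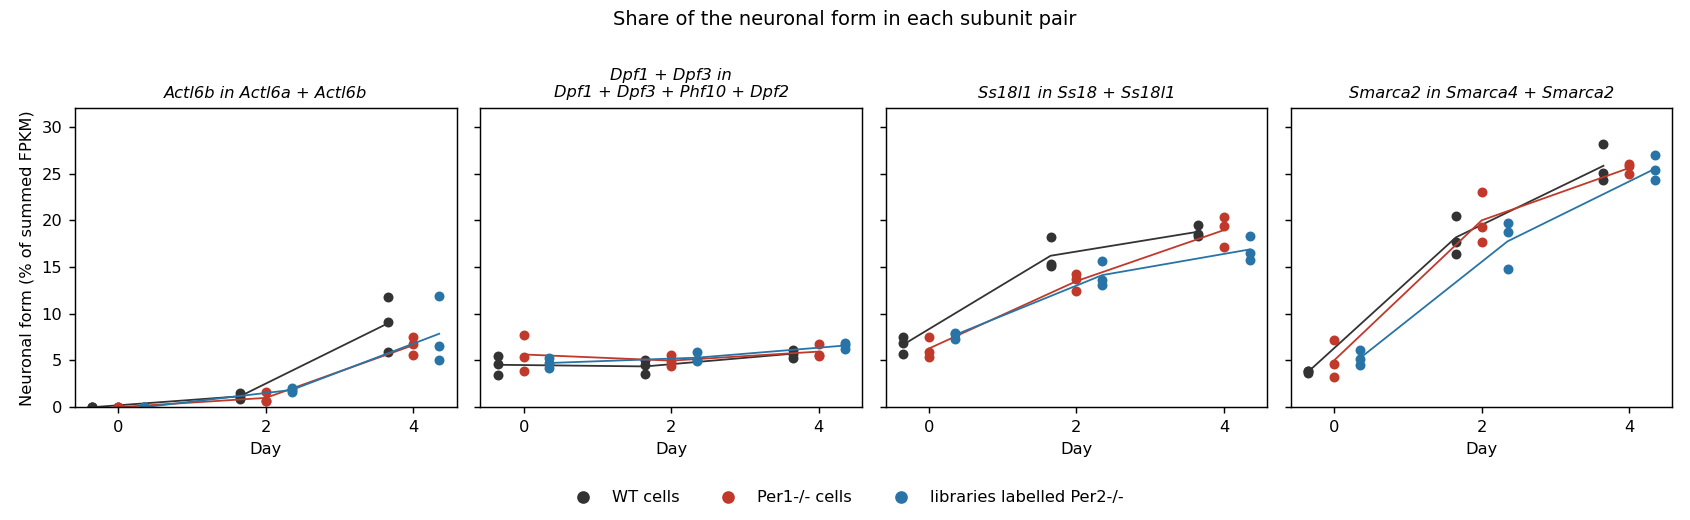
Share of the neuronal form in the summed FPKM of its pair or group (vertical axis, percent) against day, for 4 subunit pairs. Points are libraries colored by genotype and shifted sideways by genotype, and lines join means of 3 libraries; the shares of *Smarca2* and *Ss18l1* are above all day 0 values from day 2 on, whereas the BAF45 share stays between 3.42% and 7.75%.

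In the order of level on day 4, the progenitor forms *Smarca4*, *Ss18*, *Phf10*, and *Dpf2* were ahead of *Smarca2*, then *Actl6a*, *Ss18l1*, *Dpf1*, *Actl6b*, and *Dpf3*, by median FPKM. *Dpf2* (11.5 to 12.8 FPKM) and *Smarca2* (11.1 to 12.9 FPKM) did not differ beyond the spread of their libraries, and *Phf10* overlapped with both only at its lowest library and with *Ss18* only at its highest. On day 0 *Smarca2* stood between *Phf10* and *Ss18l1*, and its lowest library was under the highest of *Ss18l1*. No neuronal form exceeded the progenitor form of its pair in any library of days 0 to 4.

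Of the 8 members tested, 3 rose and 0 fell from day 0 to day 2, and 4 rose and 0 fell to day 4. Of all genes tested, 22.2% were called higher and 19.9% lower on day 2, and 24.4% and 21.2% on day 4. The median log2 difference of the members to day 4 was 0.40, and that of all tested genes -0.01. From day 2 to day 4 none of the 8 was called in limma, where 6.54% of genes were called higher and 3.43% lower, and 5 of the 8 had an unadjusted p under 0.05, as had 40.4% of all genes. Without overlap of any of the 9 libraries, 4 of the 8 were above day 0 on day 2 (19.7% of all genes) and 2 below (21.5%), 3 above (19.8%) and 3 below (22.7%) on day 4, and 1 above (2.01%) and 2 below (3.13%) on day 4 against day 2.

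The scaling of libraries bears on the small differences. With TPM the median of all genes shifted by 0.37 for day 2 against day 0 and by 0.30 for day 4 against day 0, and with total fragments as the library size by 0.26 and 0.25. The differences of *Actl6a* and *Ss18* on day 2 turned positive under both scalings and that of *Smarca4* under TPM. Relative to the shift, the TPM values for day 2 were -0.26 for *Actl6a*, -0.19 for *Ss18*, and -0.27 for *Smarca4*, against 1.96 for *Smarca2* and 1.01 for *Ss18l1*. With TPM 5703 genes were called higher and 1375 lower on day 2, against 3308 and 2967 with the deposited values. Shares within a pair do not depend on the scaling.

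**Figure D3:**
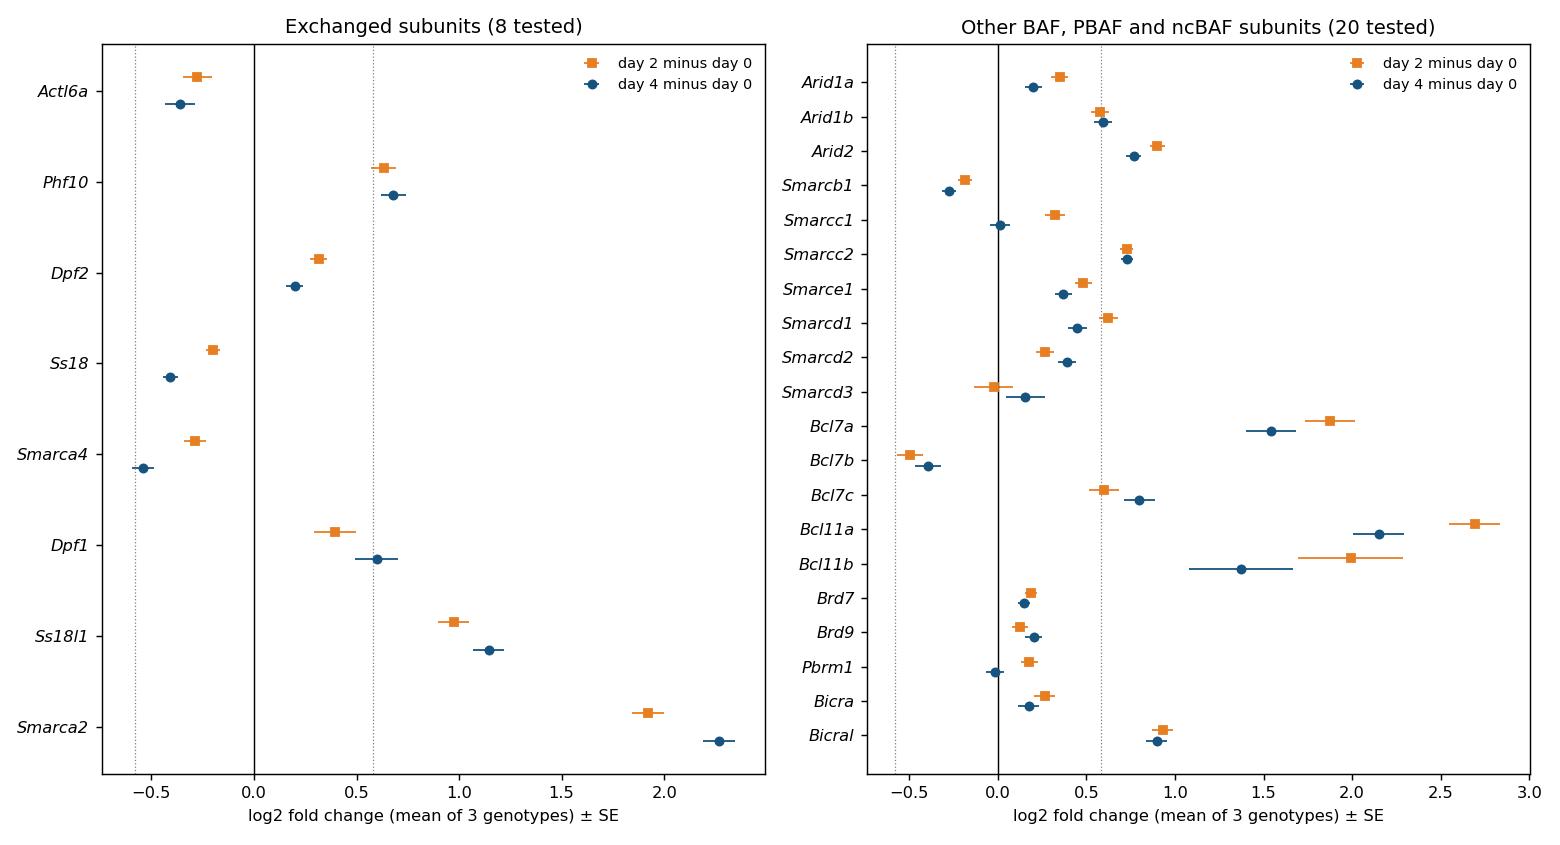
Log2 fold change (horizontal axis, mean of 3 genotypes, with bars for the standard error) of day 2 against day 0 (squares) and day 4 against day 0 (circles) for the 8 tested members on the left and 20 other subunits on the right. Dotted lines mark 0.58 in either direction. In the left panel, *Smarca2* at 2.26, *Ss18l1* at 1.14, the progenitor form *Phf10* at 0.68, and *Dpf1* at 0.60 lie beyond the right line on day 4. None lies beyond the left line.

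The change was then followed in each genotype. From day 0 to day 4, 4 members rose and 1 fell in WT cells, beside 22.9% of all genes called higher and 20.9% lower. Per1-/- cells had 3 members that rose and 0 that fell, beside 22.6% and 20.4% of all genes, and the libraries labelled Per2-/- had 4 and 0, beside 21.6% and 18.8%. On day 2, 3 members rose and 0 fell in WT cells (20.8% and 19.7% of all genes), 2 and 0 in Per1-/- cells (20.8% and 18.8%), and 2 and 0 in the libraries labelled Per2-/- (18.7% and 16.8%).

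The log2 fold change of *Smarca2* from day 0 to day 4 was 2.49 for WT, 2.18 for Per1-/-, and 2.13 for the label Per2-/- (standard error 0.136 each). WT cells started lower, with 1.90, 2.14, and 1.98 FPKM on day 0 against 3.54, 2.06, and 2.52 in Per1-/- cells and 2.40, 2.47, and 3.15 in the libraries labelled Per2-/-. The latter were all above WT, but the log2 difference of 0.39 was not called (adjusted p = 1 from limma), and by day 4 the groups were at 11.8, 12.1, and 11.3, at 12.2, 12.5, and 12.1, and at 12.9, 11.1, and 11.9 FPKM. *Ss18l1* rose by 1.20, 1.29, and 0.94 in the 3 genotypes and *Phf10* by 0.80, 0.59, and 0.65.

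*Phf10* on day 2 was under the minimum size in Per1-/- cells (0.579) and for the label Per2-/- (0.54), and it was called without Per1-/- day 0 replicate 1 (0.72), Per1-/- day 2 replicate 3 (0.63), or the library labelled Per2-/- day 0 replicate 2 (0.60). Its call on day 4 in Per1-/- cells was not made without day 0 replicate 2 (0.56), day 0 replicate 3 (0.50), or day 4 replicate 3 (0.52) of these cells. The member that fell in WT cells was *Smarca4*, at a log2 difference of -0.58, just past the minimum size. Its call was lost without WT day 0 replicate 2 (-0.55), WT day 0 replicate 3 (-0.57), or WT day 4 replicate 2 (-0.52). In Per1-/- cells its difference was -0.56, and it was called without Per1-/- day 0 replicate 1 (-0.66) or day 4 replicate 2 (-0.60), as was *Actl6a* without Per1-/- day 0 replicate 1 (-0.59). In the libraries labelled Per2-/- *Smarca4* differed by -0.47. *Dpf1* was called for WT (0.71) and for the label Per2-/- (0.81) and not for Per1-/- (0.27, standard error 0.178), and the difference between genotypes was not called.

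**Figure D4:**
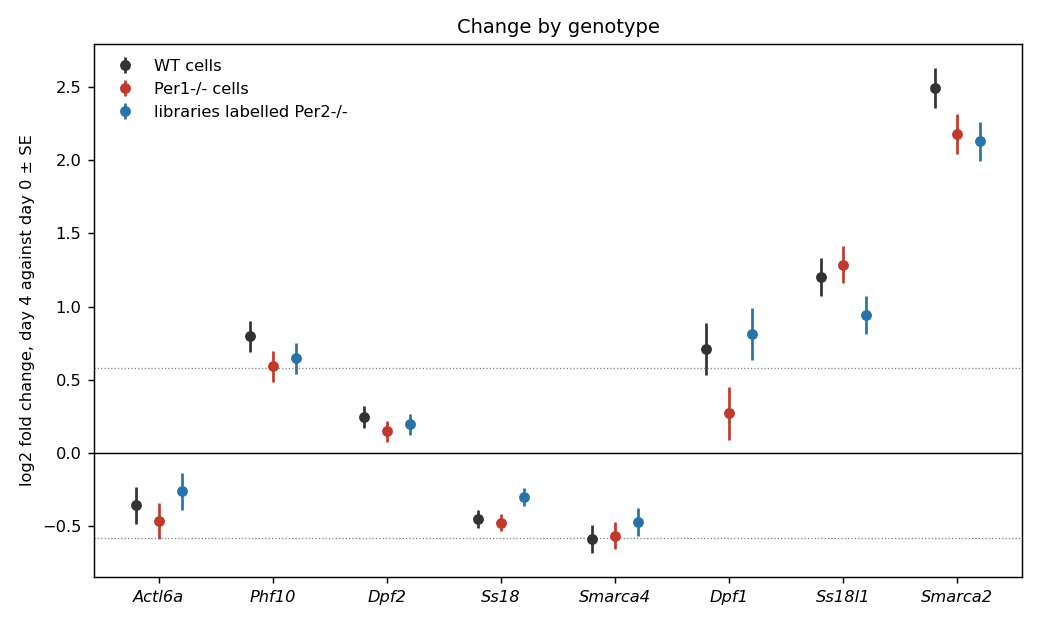
Log2 fold change of day 4 against day 0 (vertical axis, with bars for the standard error) for the 8 tested members, with a color for each genotype. Dotted lines mark 0.58 in either direction; the 3 genotypes lie close together for most genes, and *Dpf1* has the lowest value in Per1-/- cells at 0.27.

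No member was called between genotypes. Over 9 comparisons of 2 genotypes within a day, the log2 differences of the 8 members ran from -0.34 to 0.39, none was called in limma, and the lowest adjusted p was 0.433. At an unadjusted p under 0.05 there were 6 of 72 tests (8.33%), beside 5.71% of the tests of all genes in these 9 comparisons, with 2.75% to 13.2% in each. The 6 were *Smarca2* in both mutant groups against WT on day 0, *Phf10* in both against WT on day 2, *Phf10* in Per1-/- cells on day 4, and *Ss18l1* in Per1-/- cells on day 2. Of all genes, Per1-/- cells against WT had 0.0134%, 0.0067%, and 0.0268% called on days 0, 2, and 4, the libraries labelled Per2-/- against WT 0.0067%, 0.0268%, and 0.0067%, and Per1-/- cells against these 0.0201%, 0.0737%, and 0.556%. The change over days also gave no call between genotypes for any of 14932 genes (0.0%) in limma, with 306 to 500 genes (2.05% to 3.35%) at an unadjusted p under 0.05 per comparison, among them 1 member result, *Smarca2* to day 2 in the libraries labelled Per2-/- against WT (-0.46, standard error 0.192). For any 1 gene, 3 libraries against 3 cannot give an exact two-sided permutation p below 0.1. Of 12 macrophage markers, 0 were called for Per1-/- cells against WT on day 2 or day 4. Their median log2 differences were 1.03 and 0.96. With DESeq2 and the same thresholds, the authors reported many more genes that differed in Per1-/- cells on these days. A member without a call here is therefore not shown to be equal between genotypes.

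The low neuronal forms varied among replicates on day 4. *Actl6b* had 0.539, 0.800, and 1.00 FPKM for WT, 0.569, 0.488, and 0.556 for Per1-/-, and 0.578, 0.984, and 0.430 for the label Per2-/-, and the 3 groups overlapped. *Dpf3* had 0.165, 0.202, and 0.232 FPKM for WT, 0.334, 0.203, and 0.166 for Per1-/-, and 0.0956, 0.0903, and 0.111 for the label Per2-/-, all of the last below the others. The log2 difference of the latter from WT was -0.59 in the fit of all genes above 0 (adjusted p = 0.672 from limma), from 8 to 10 fragments against 13 to 22, and it was not called.

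The other subunits of BAF, PBAF, and ncBAF show how far the complex as a whole moved. Of 20 tested, 8 rose and 0 fell from day 0 to day 4, beside the 24.4% and 21.2% of all genes, with a median log2 difference of 0.38. *Bcl11a*, a zinc finger protein of the complex in brain and lymphoid cells, rose by 2.15 from 0.0771 to 0.313 FPKM on day 0 to 0.841 to 1.38 on day 4. Its relative *Bcl11b* rose by 1.37 and *Bcl7a*, a small accessory subunit, by 1.54. *Bicral* of ncBAF rose by 0.90, *Bcl7c* by 0.80, *Arid2* of PBAF by 0.77, the scaffold *Smarcc2* (BAF170) by 0.73, and *Arid1b* by 0.59.

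The call of *Arid1b* was lost with a pseudocount of 1 (0.53) and without Per1-/- day 0 replicate 3 (0.57), the library labelled Per2-/- day 0 replicate 1 (0.57), or WT day 4 replicate 3 (0.577). *Smarcc2* had 26.7 to 30.7 FPKM on day 0 and 45.7 to 50.7 on day 4, with no overlap. *Bcl11a* and *Bcl11b* were at 1.09 to 2.03 and 1.09 to 4.75 FPKM on day 2. With TPM or total fragments 11 of the 20 were called higher on day 4, and 0 lower.

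Of the regulators of the switch, *Rest* had 10.7 to 14.3 FPKM on day 0 and 10.9 to 14.2 on day 4, with a log2 difference of -0.03 (standard error 0.0637, adjusted p = 0.677 from limma). *Rcor2*, a corepressor that works with REST, had 2.21 to 5.98 FPKM on day 0, 20.7 to 28.6 on day 2, and 12.5 to 16.6 on day 4. It rose by a log2 fold change of 2.46 to day 2 and then fell by 0.60 to day 4, where it was still 1.86 above day 0, and every day 4 library lay below every day 2 library. The call of the fall was lost with a pseudocount of 1 (-0.57), without the libraries labelled Per2-/- (-0.57), or without WT day 2 replicate 3 (-0.56). The host transcripts of microRNAs were too low to be tested. *Mir124a-1hg* of miR-124 had 0 to 2 fragments per library on day 0 and 15 to 84 on day 4, without overlap, and *Mir124-2hg* had 0 on day 0 and 2 to 17 on day 4. *Mir9-3hg*, a host of miR-9, had 0 to 3 fragments (0 to 0.0446 FPKM) on day 0, 0 to 9 on day 2, and 2 to 16 (0.0204 to 0.211 FPKM) on day 4, and its days overlapped. Of 12 cell cycle genes, whose summed level was 213 to 448 FPKM on day 0 and 115 to 154 on day 4, 0 were called higher and 10 lower on day 4, and their part in the lower values of the progenitor forms was not tested.

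Among the genes with the pattern most like that of *Smarca2* over the 27 libraries were *Nfia* (Pearson's r = 0.992), *Kmt2c* (0.989), *Susd4* (0.985), and *Marcks* (0.984). For *Phf10*, the progenitor form with the largest change, they were *Zfp266* (0.952), *Kat6b* (0.951), *Zfp354c* (0.950), *Zfp260* (0.948), and *Rnf2* (0.947). The points share the time course and the size factors of the libraries, and the correlations are given as a description.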

How the data were processed

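The authors aligned reads to mm10 with HISAT2 2.0.5, counted them per gene with featureCounts 1.5.0-p3, per the labels, and deposited FPKM. With the deposited gene lengths, 100% of FPKM values gave whole fragments (tolerance 0.01), and the deposited FPKM carried a size factor for each library. DESeq2, which the authors ran on counts, was not used here. The values were converted to log2(FPKM + 0.1), so that fold changes of low genes are understated. Genes whose mean reached 0.5 FPKM, 14932 in all, were tested with limma 3.58.1 (R 4.3.3, lmFit, contrasts.fit, and eBayes with a trend) in 9 groups, with Benjamini-Hochberg adjustment over all tested genes. A call needed an adjusted p up to 0.05 with a log2 size from 0.58. Of the 10 members, 8 passed the filter. Log2 changes are averaged over genotypes unless stated.

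Groups and replicate numbers came from the labels, and replicates are labelled biological. Depth was 15815013 to 24264097 fragments, and floors of 3 fragments cover counting error only. The members and lists were chosen with earlier results of these data known. Named genes are the members, the called genes among other subunits and regulators (at most 8 in each direction) with *Rest*, the transduced and targeted genes, and the 5 genes most correlated with one progenitor and one neuronal member. Some genes that this rule names are not reported here. Other pseudocounts, filters, scalings, models, and each library left out in turn were tried. On simulated data the procedure was tested before use. Tables and figures were made with Python 3.11.15, pandas 2.3.3, numpy 2.4.6, and matplotlib 3.10.9. Protein sequences were not used here.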

Additional observations from a re-analysis of the deposited data

How the results depend on the processing

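*Smarca2*, *Ss18l1*, and *Phf10* were called higher on days 2 and 4 under every setting and with any 1 library left out, averaged over genotypes, while the other members changed calls as follows. Without a minimum fold change, 5 members were called higher and 3 lower on day 2, 3 lower on day 4, and 1 higher and 3 lower from day 2 to 4. In WT cells this gave 5 higher and 2 lower on day 2 and 3 lower on day 4, in Per1-/- cells 4 higher and 3 lower on day 2 and 3 lower on day 4, and in the libraries labelled Per2-/- 5 higher on day 2 and 2 lower on day 4. With TPM, 5 were called higher on day 2 on average and in each genotype, and with total fragments, a setting chosen after seeing the data, 5 on average and for WT, and 4 for the label Per2-/-. With a pseudocount of 1, TPM, or total fragments, 0 were called lower in WT cells on day 4. With all genes above 0, which adds *Actl6b* and *Dpf3*, 2 were called higher from day 2 to 4 and 5 in Per1-/- cells on day 4. On day 2 *Actl6a* turned to 0.11 with TPM and 0.0052 with total fragments, *Ss18* to 0.19 and 0.082, and *Smarca4* to 0.10 with TPM, and *Phf10* from day 2 to 4 turned to -0.033 with TPM. Relative to the median of all genes under the same scaling, none of these turned. No setting and no single left-out library gave a call of a member between genotypes. With 1 library left out, 0 to 1 members were called lower in WT cells on day 4 and 0 to 2 in Per1-/- cells.

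The BAF45 share was 8.81%, 9.30%, and 11.5% on days 0, 2, and 4 with *Dpf1* alone against *Dpf2* alone, and 10.1%, 9.01%, and 10.6% with *Dpf1* and *Dpf3* against *Phf10* alone. Over all genes, 3308 were called higher on day 2 and 5567 without a minimum fold, 3644 and 5740 on day 4, and 976 and 2097 from day 2 to 4, with 628 there at a pseudocount of 1. The genes called lower were 2967 and 5697, 3161 and 5851, and 512 and 2357. With TPM or total fragments those called lower were 1375 or 1643 on day 2 and 1839 or 1942 on day 4. Per direction, the comparisons of genotypes had 0 to 66 genes called, and 0 to 231 in the settings that moved these counts.

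Libraries of a genotype with the same replicate number had correlated deviations over days, at -0.02 to 0.29 with 14 of 27 pairs over 0.1, against 0 of 54 pairs with different numbers, and 48 of 54 comparisons correlated best with their own number. This is a hint that the numbers mark shared cultures over days, which the labels do not state. Every pair was over 0.1 in 3 of 9 steps, day 0 to 2 and day 2 to 4 in Per1-/- cells and day 2 to 4 in WT cells, and not in the other steps. The values without the block are given throughout, and their standard errors and p-values do not take such sharing into account. Within a day, 3 of 27 pairs of genotypes with the same number were over 0.1. With the replicate block 3 members were called higher on day 2 and 4 on day 4, 2 on day 2 in Per1-/- cells, and no member's call changed. The block moved the genes called higher in Per1-/- cells against the label Per2-/- from 9 to 37 on day 2 and from 66 to 121 on day 4.

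On days 0 and 2, counts of 0 to 14 fragments limit *Actl6b* and 0 to 11 *Dpf3*.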
